A study of Mus musculus with 4 samples.

Results

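Guanylate-binding proteins (GBPs) and immunity-related GTPases (IRGs) are GTP-hydrolysing proteins of the interferon response. The members described here are 10 of the 24537 genes in the deposited table, chosen by their symbols: the GBP genes Gbp2, Gbp3, Gbp4, Gbp5, Gbp6 and Gbp7, and the IRG genes Iigp1, Igtp, Irgm1 and Irgm2. RNA was sequenced from mouse CD8+ cells taken out of B16-GP33 tumours on day 21, in 2 libraries labelled ACSS2NLS and 2 labelled EV. The ACSS2NLS cells carry added ACSS2, an enzyme that turns acetate into acetyl-CoA, with a tag whose usual meaning is a nuclear localisation signal. EV is the control that the study set beside them, and cells of both groups came from tumours of the same kind and the same day. The tumour line, B16, derives from a mouse melanoma, and GP33 names a viral epitope that CD8+ T cells recognise. The labels do not give the age of the mice, the construct that drives ACSS2 or whether each library came from its own mouse, and no group had ACSS2 without the tag. The p-values below therefore rest on how far these 4 samples scatter, and that scatter may be technical.

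Interferon gamma binds a receptor of the chains IFNGR1 and IFNGR2, which signals through the kinases JAK1 and JAK2. Target genes are switched on through a DNA motif called GAS, and through the motif called ISRE, which IRF1 binds. GBPs and IRGs are among the genes most strongly induced in this way in mouse cells. Both families act on membranes: they assemble on vacuoles that hold bacteria or parasites and help to break them. Within the IRGs, the products of Irgm1, Irgm2 and Igtp are regulators that sit on the membranes of the cell's own organelles and keep the effector IRGs, such as the product of Iigp1, inactive there. T cells make interferon gamma and also respond to it.

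Upstream sequences of 7 of the 10 members (Gbp2, Gbp3, Gbp5, Gbp7, Igtp, Irgm1 and Irgm2) were available from RefSeq, build GRCm38.p6, as windows of 250 bases before to 50 bases after the start site. The last 120 bases before the start site are printed for 5 of them, because Irgm2 and Igtp can be compared base by base and the others show different sets of motifs, in genes that differ in level and in how ACSS2NLS compares with EV: Irgm2 (chr11:58214857-58214976, plus strand), Igtp (chr11:58199436-58199555, plus strand), Irgm1 (chr11:48871421-48871540, minus strand), Gbp2 (chr3:142620543-142620662, plus strand) and Gbp7 (chr3:142530216-142530335, plus strand). Capitals mark matches to GAS (TTCNNNGAA, which reads alike on both strands) and to ISRE (GAAA, any 2 bases, then GAAA, on either strand).
Irgm2: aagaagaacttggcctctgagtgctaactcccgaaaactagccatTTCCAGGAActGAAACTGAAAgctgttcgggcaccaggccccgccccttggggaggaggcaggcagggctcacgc
Igtp: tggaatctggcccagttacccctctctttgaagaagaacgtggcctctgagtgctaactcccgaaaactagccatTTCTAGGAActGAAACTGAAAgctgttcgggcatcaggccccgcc
Irgm1: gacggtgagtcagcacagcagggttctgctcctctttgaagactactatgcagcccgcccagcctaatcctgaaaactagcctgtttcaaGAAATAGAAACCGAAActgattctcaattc
Gbp2: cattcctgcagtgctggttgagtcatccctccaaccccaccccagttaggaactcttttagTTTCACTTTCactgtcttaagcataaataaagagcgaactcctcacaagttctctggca
Gbp7: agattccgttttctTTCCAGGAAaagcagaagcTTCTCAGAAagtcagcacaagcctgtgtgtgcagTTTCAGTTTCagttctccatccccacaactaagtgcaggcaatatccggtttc

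Irgm2 and Igtp, neighbours on chromosome 11, share nearly the same promoter: lined up on the GAS match, 86 of 89 bases were identical (96.6%). In both, the ISRE match began 11 bases after the first base of the GAS match. That spacing was found in 5 of the 32851 RefSeq windows of the same length (0.0152%), those of Igtp, Irgm2, the IRG relatives Tgtp1 and Tgtp2, and Gm12185. The spacing was read off Igtp and Irgm2, so their place among the 5 was fixed beforehand. Only GAS ahead of ISRE, read in the direction of the gene, was counted. In Irgm1 the capitals are 2 ISRE matches that overlap each other, with no GAS match, and its RefSeq start site lies 74 bases from the start of the deposited transcript. Over the whole 300 bases, 6 of the 7 members held an ISRE match, against 3.44% of all windows, 4 held a GAS match, against 8.3%, and 4 held both, against 0.454%. Gbp3 held neither, and its RefSeq start site lies 140 bases from that of the deposited transcript. A match is a description of the letters and not a measured binding site.

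**Figure D1:**
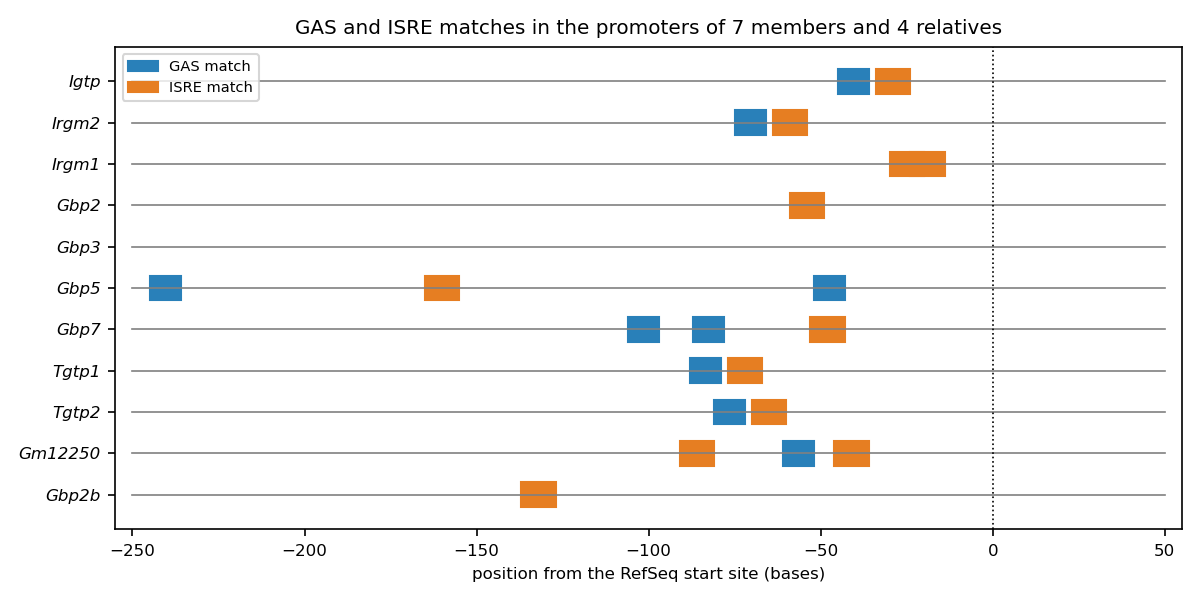
Positions of GAS (blue) and ISRE (orange) matches in the RefSeq promoter windows of 7 members and 4 relatives. The x axis is the distance from the start site in bases and the dotted line is the start site. Of 9 relatives with a window, only the 4 with a match before the start site are drawn. Of the 9, 3 held both motifs. The window of Ifi47 held neither, but its start site lies 10430 bases from that of the deposited transcript. The GAS and ISRE matches of Igtp, Irgm2, Tgtp1 and Tgtp2 keep the same spacing of 11 bases at different distances from the start.

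Acss2 and the T cell genes were as the labels name them. Acss2 was at 80.7 and 86.3 FPKM in the ACSS2NLS libraries, against 3.66 and 3.92 FPKM in the EV libraries (FPKM are fragments scaled to exon length and to the tags of the library, so levels of different genes can be compared per length). Cd8a lay between 145 and 186 FPKM and Cd4 between 1.115 and 2.395 FPKM. Transcripts of other tumour cells varied widely, and those of macrophages, melanoma and neutrophils did so within each group. Over 14 macrophage and monocyte markers, the summed level was 164 and 821 FPKM in the ACSS2NLS libraries (replicates 1 and 2), against 54.9 and 459 FPKM in the EV libraries, and none of these markers was at 0. The 9 melanoma markers summed to 13.8 and 180 FPKM in ACSS2NLS, against 7.62 and 46.2 FPKM in EV. The 7 neutrophil markers summed to 0.774 and 3.16 FPKM in ACSS2NLS, against 7.46 and 53.5 FPKM in EV, with S100a9, Cxcr2 and Retnlg at 0 in at least 1 library. Macrophages also express GBPs and IRGs, so these values stand beside the members throughout; in bulk RNA, more cells of a type and more RNA per cell cannot be told apart.

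All 10 members were expressed. Igtp was by far the highest: it averaged 88.0 FPKM over the 4 libraries and ranked 329 among the 9810 genes tested, those that averaged 1 FPKM or more. Gbp4 followed with a mean of 40.2 FPKM, then Irgm1 with 32.0, Gbp2 with 27.0, Gbp3 with 24.4, Gbp7 with 22.7, Gbp6 with 16.4, Iigp1 with 9.53, Gbp5 with 8.15 and Irgm2 with 4.40 FPKM. Of the 9 pairs of neighbours in that order, the ranges over the 4 libraries were separate for Igtp above Gbp4 and for Gbp7 above Gbp6. The other 7 pairs overlapped. Irgm2, the lowest member, ranked 6479.

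Between ACSS2NLS and EV, the IRG members were higher in mean and the GBP members were split. All 4 IRG members had a higher mean in ACSS2NLS, with a median log2 change of 0.57 (ACSS2NLS minus EV, on the log2(FPKM + 1) scale), while the GBP members were 3 above and 3 below EV in mean, with a median of 0.02. The median over the 10 members was 0.09 and that over all 9810 genes 0.02. None of the 10 passed the limma-trend test over all genes tested (adjusted p from 0.775 to 0.999), where 0.0204% of genes passed upward and 0% downward. At an unadjusted p under 0.05 there were 3 members, all higher in ACSS2NLS (Iigp1, Irgm1 and Irgm2), where 3.1% of all genes were called in that direction, 2.87% in the other and 5.97% in either. The same 3 had both ACSS2NLS libraries above both EV libraries, as did 19.3% of all genes. Gbp7 had both below, as did 18.1%, so that 4 of 10 members did not overlap between the groups, against 37.4% of all genes. The other 6 members overlapped. The grouping into IRG and GBP genes follows their names; that the groups differ was not tested.

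**Figure D2:**
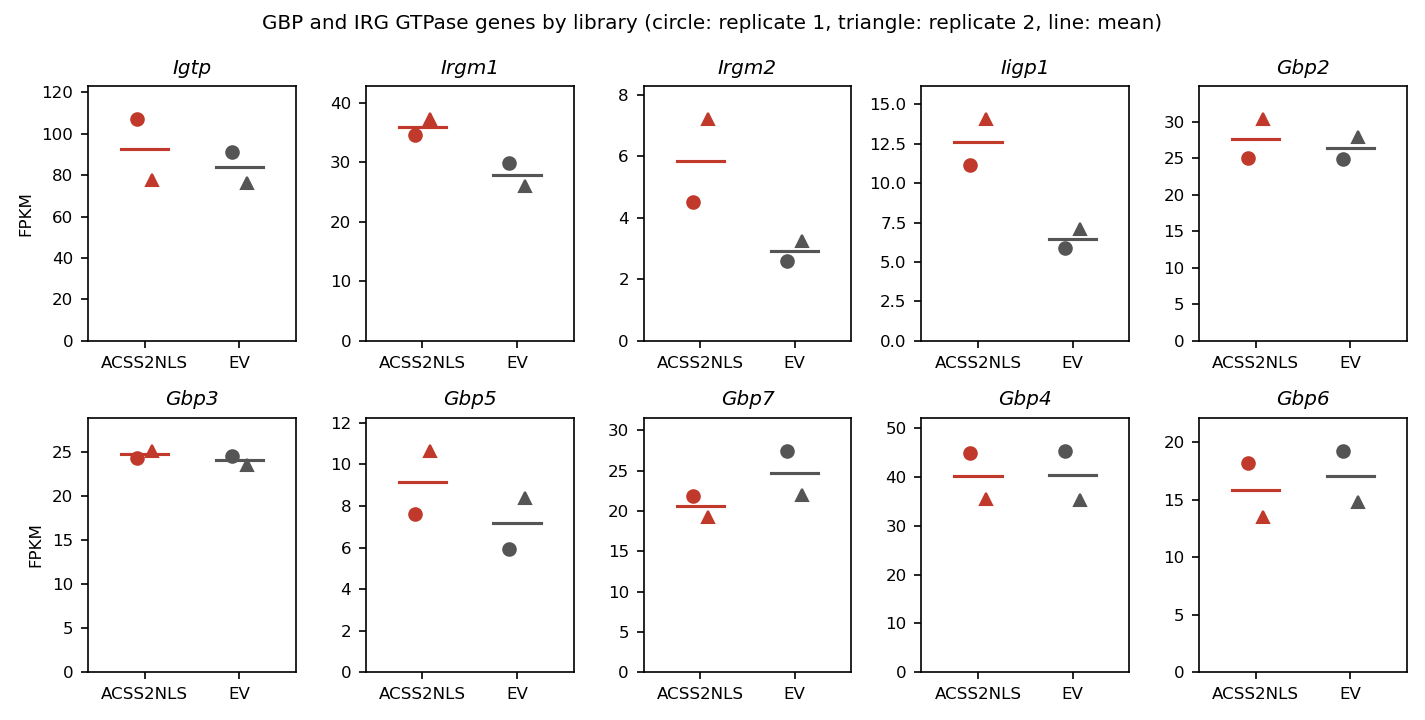
FPKM of the 10 members in each library, with ACSS2NLS (red) left of EV (grey); circles are replicate 1, triangles replicate 2 and lines group means (n = 2), and each y axis starts at 0. For Irgm1, Irgm2 and Iigp1 both ACSS2NLS points lie above both EV points, and for Gbp7 both lie below.

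Iigp1 had the largest log2 change of the members on the log2(FPKM + 1) scale with all 4 libraries; by the fold of the means Irgm2 was slightly ahead. It encodes an effector IRG that coats parasite vacuoles (NM_021792; mm10 chromosome 18, 60376029 to 60392629, plus strand, as in the deposited table). Its level was 11.2 and 14.0 FPKM in ACSS2NLS, against 5.86 and 7.08 FPKM in EV. Both ACSS2NLS libraries stood above both EV libraries, by 1.95-fold in mean FPKM. The log2 change was 0.86 ± 0.17 (SE, n = 2 per group; limma-trend, unadjusted p = 0.00274, adjusted p = 0.775 over all genes). The counting error was small beside the gap: 1598 and 1992 tags lay behind the ACSS2NLS values and 791 and 1025 behind the EV values, so that the exact 95% Poisson interval of the lower ACSS2NLS library, 10.6 to 11.7 FPKM, lay above that of the higher EV library, 6.66 to 7.53 FPKM. These intervals cover counting error only, since tags amplified by PCR are not independent molecules.

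Irgm2 was the other member near a doubling. It encodes a regulatory IRG of the Golgi membrane (NM_019440; chromosome 11, 58214977 to 58222783, plus strand). It was at 4.51 and 7.21 FPKM in ACSS2NLS, against 2.61 and 3.26 FPKM in EV. The lowest ACSS2NLS library was above the highest EV library, and the fold of the means was 1.997. The log2 change was 0.78 ± 0.23 (limma-trend, unadjusted p = 0.0179, adjusted p = 0.81). Irgm2 had 421 tags in the library with the fewest.

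Irgm1 showed a smaller difference. It encodes the regulatory IRG without which activated mouse CD4+ T cells die in the presence of interferon gamma (NM_008326; chromosome 11, 48865249 to 48871346, minus strand). Its level was 34.7 and 37.3 FPKM in ACSS2NLS, against 29.9 and 26.0 FPKM in EV. The groups did not overlap, and the mean was 1.29-fold higher (log2 change 0.35 ± 0.12; limma-trend, unadjusted p = 0.0312, adjusted p = 0.81). Igtp, which encodes the regulator also called IRGM3 and lies next to Irgm2 (NM_018738; chromosome 11, 58199556 to 58207592, plus strand), overlapped between the groups. It was at 107 and 77.7 FPKM in ACSS2NLS, against 91.1 and 76.3 FPKM in EV (log2 change 0.13 ± 0.19, adjusted p = 0.916 by limma-trend).

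A ratio of members within a library does not depend on how libraries are scaled, and Igtp, the highest member, was taken as the base. Whether the like promoter letters of Igtp and Irgm2 give them shared control was not tested. Irgm2 stood at 4.22% and 9.27% of the Igtp level in ACSS2NLS, against 2.86% and 4.27% in EV, so the groups overlapped. Iigp1 stood at 10.4% and 18.1% of Igtp in ACSS2NLS, against 6.43% and 9.28% in EV, and did not overlap. Irgm1 stood at 32.4% and 47.9% of Igtp in ACSS2NLS, against 32.8% and 34.1% in EV, and overlapped. With 2 libraries a group an exact permutation test of such a ratio cannot give a two-sided p below 0.333.

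The GBP members on chromosome 3 were near level between the groups, apart from Gbp7 and Gbp5. Gbp2, whose product coats Toxoplasma vacuoles in mice (NM_010260; 142620663 to 142638008, plus strand), was at 25.02 and 30.3 FPKM in ACSS2NLS, against 24.9 and 27.9 FPKM in EV. Gbp3 (NM_001289493; 142560496 to 142573212, plus strand) was the steadiest member, at 24.4 and 25.1 FPKM in ACSS2NLS, against 24.6 and 23.5 FPKM in EV (log2 change 0.04 ± 0.11). The Gbp3 values overlapped between the groups, as did those of Gbp2.

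Gbp5, which in mice takes part in inflammasome assembly (NM_153564; 142496934 to 142522344, plus strand), was at 7.62 and 10.7 FPKM in ACSS2NLS, against 5.92 and 8.39 FPKM in EV. Its groups overlapped, and replicate 2 was the higher library in each group (log2 change 0.31 ± 0.22, limma-trend adjusted p = 0.835). Gbp7 (NM_001083312; 142530336 to 142550151, plus strand) was at 21.9 and 19.3 FPKM in ACSS2NLS, against 27.5 and 22.01 FPKM in EV. It was the member with the lowest change, -0.25 ± 0.15 (limma-trend adjusted p = 0.822), and the gap between its nearest libraries, 21.9 FPKM in ACSS2NLS and 22.01 FPKM in EV, was within the counting error (95% Poisson intervals 21.3 to 22.5 FPKM and 21.5 to 22.6 FPKM).

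The chromosome 5 members Gbp4 and Gbp6 differed more between replicates than between groups. Gbp4 (NM_008620; 105115767 to 105139552, minus strand) was at 44.8 and 35.4 FPKM in ACSS2NLS, against 45.3 and 35.3 FPKM in EV. Gbp6 (NM_194336; 105270702 to 105293699, minus strand) was at 18.2 and 13.5 FPKM in ACSS2NLS, against 19.3 and 14.8 FPKM in EV. In each group replicate 1 was the higher library for both genes. Their log2 changes were -0.01 ± 0.18 and -0.10 ± 0.20. By the share of words Gbp6 is the least certain member, since 62.3% of the 50-base words of an annotated transcript of it also occur in Gbp10. That transcript has 2604 bases, whereas the deposited values count 4303 exon bases. Gm43302, which overlaps Gbp6 exons on the same strand and has no values here, shares 90.2% of the words. For the other members the gene in the table that shares most takes 12.3% or less, and 12.3% is the share of Igtp words that occur in Irgm2. Of the Irgm2 words, 5.84% occur in Igtp, which averaged 88.0 FPKM, against 4.40 FPKM for Irgm2. What reads that fit both genes add to Irgm2 was not tested. On the same strand, annotated exons of Irgm2 overlap those of Igtp, exons of Gbp8 and Gbp9 those of Gbp4, and exons of Gm43802 those of Gbp7. How the authors treated reads that fit several genes was not given in the sources used here.

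Set beside the cell markers, the members followed different patterns over the libraries. Gbp4 and Gbp6, averaged on the log2 scale and set to 0 over the 4 libraries, stood at 0.16 and -0.21 in ACSS2NLS replicates 1 and 2, against 0.20 and -0.15 in EV replicates 1 and 2. The mean of the 10 CD8 T cell markers had the same order within each group (0.14 and -0.23 in ACSS2NLS, against 0.16 and -0.07 in EV). That of the macrophage markers had the opposite one (-0.56 and 1.37 in ACSS2NLS, against -1.66 and 0.84 in EV). The mean of the 4 chromosome 3 members differed little between libraries (-0.05 and 0.09 in ACSS2NLS, against -0.05 and 0.01 in EV). Of these, Gbp2 and Gbp5 were higher in replicate 2 in each group and Gbp7 in replicate 1, while Gbp3 had no common order. The mean of the 4 IRG members was above 0 in both ACSS2NLS libraries and below 0 in both EV libraries (0.20 and 0.33 in ACSS2NLS, against -0.27 and -0.26 in EV), but its members took different courses within the groups. Iigp1 and Irgm2 were higher in replicate 2 in each group, the order of the macrophage, MHC class II, melanoma and neutrophil markers in mean. Replicate 1 minus replicate 2 was -0.31 in ACSS2NLS and -0.24 in EV for Iigp1, and -0.57 in ACSS2NLS and -0.24 in EV for Irgm2. Igtp was higher in replicate 1 in each group (0.45 in ACSS2NLS and 0.25 in EV), the order of the CD8 T cell markers in mean. Cd3e in ACSS2NLS and Thy1 in EV had the other order. Libraries of the same number deviated together over all genes (r = 0.58), so a shared order does not assign a gene to a cell type. The share of all genes with such an order was not counted.

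The part of macrophage RNA in the IRG values was not tested, nor was that of stromal, B or other cells. For 12 of the 13 macrophage markers tested, ACSS2NLS averaged above EV, with 0.91 as the median log2 difference over the 13. The 4 MHC class II genes also averaged above EV, with a median of 0.85. Between libraries of the same number, the macrophage marker sum was 164 against 54.9 FPKM (replicate 1) and 821 against 459 FPKM (replicate 2). The order was reversed in 1 crossed pair of libraries, which cannot measure the macrophage part. ACSS2NLS replicate 1 had a macrophage marker sum of 164 FPKM, against 459 FPKM in EV replicate 2. Iigp1 was at 11.2 FPKM in that ACSS2NLS library, against 7.08 FPKM in that EV library. Irgm2 was at 4.51 FPKM, against 3.26 FPKM, and Irgm1 at 34.7 FPKM, against 26.0 FPKM, in the same pair. The 4 MHC class II genes, which macrophages and dendritic cells express, summed to 423 FPKM in ACSS2NLS replicate 1, against 691 FPKM in EV replicate 2.

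**Figure D3:**
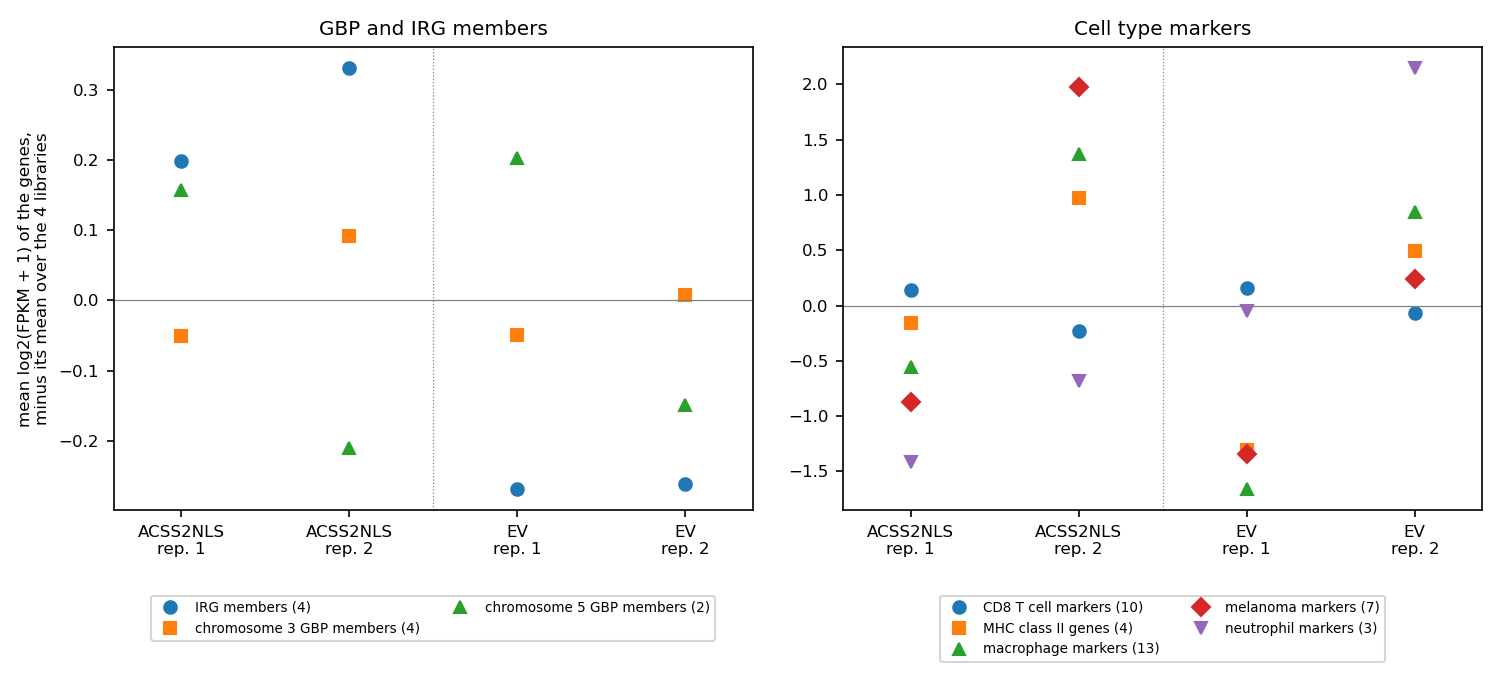
Mean log2(FPKM + 1) of gene groups in each library, minus the mean over the 4 libraries: members on the left, cell type markers that passed the filter on the right, with the number of genes in brackets and with different y scales. The IRG members lie above 0 in both ACSS2NLS libraries and below 0 in both EV libraries, while Gbp4 and Gbp6 and most of the drawn markers differ within each group. Stromal, B cell and other marker lists are not drawn.

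The 3 non-overlapping IRG members stayed higher in mean whichever library was left out, though none passed the test. With each library left out in turn, the log2 change of Iigp1 ran from 0.71 to 1.01, that of Irgm2 from 0.49 to 1.07 and that of Irgm1 from 0.26 to 0.45. Without ACSS2NLS replicate 1, Irgm2 was above Iigp1. The largest values of Iigp1 and Irgm2 came without ACSS2NLS replicate 1 and the smallest without ACSS2NLS replicate 2. Gbp7 stayed below 0 in each case, from -0.40 to -0.09. Igtp turned to -0.10 without ACSS2NLS replicate 1. Gbp5 stayed above 0, at 0.09 without EV replicate 1, 0.10 without ACSS2NLS replicate 2 and 0.53 without EV replicate 2 or ACSS2NLS replicate 1. Gbp2, Gbp4 and Gbp6 lay on either side of 0 depending on the library left out.

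**Figure D4:**
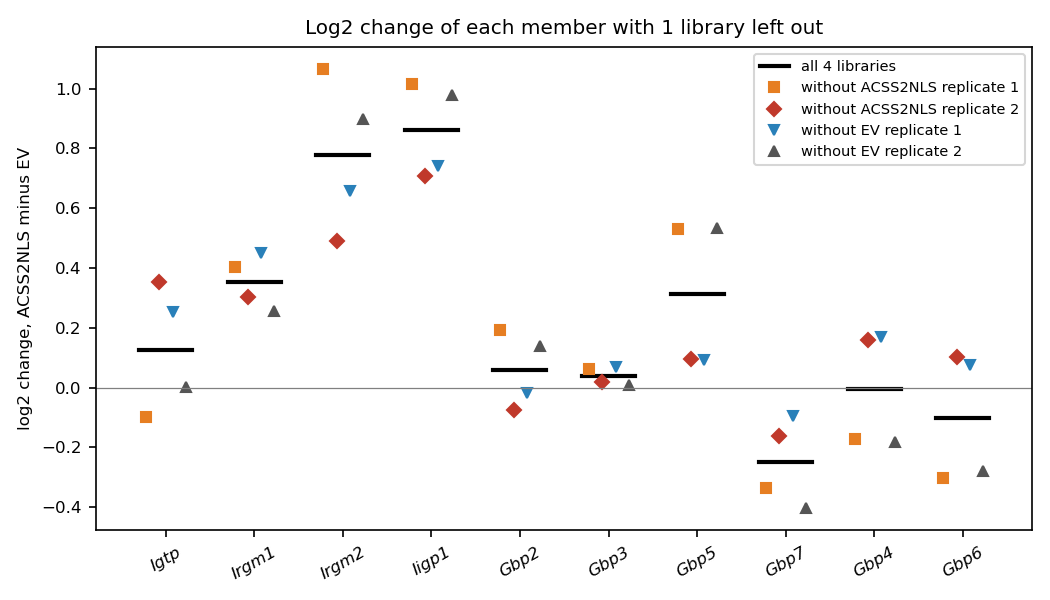
Log2 change (ACSS2NLS minus EV) of each member with all 4 libraries (black line) and with 1 library left out (symbols). Irgm1, Irgm2 and Iigp1 stay above 0 whichever library is left out, Gbp7 stays below 0, and Gbp2, Gbp4, Gbp6 and Igtp cross 0.

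The other genes of the same families were mostly higher in mean in ACSS2NLS, 7 of the 9 tested (median log2 change 0.20), where 5217 of all 9810 genes were. Of 18 relatives in the table, 9 had a mean of at least 1 FPKM and 0 of these passed the limma-trend test over all genes; at an unadjusted p under 0.05 there was 1, Gbp2b, where 3.1% of all genes were called upward, and 4 had both ACSS2NLS libraries above both EV libraries, as did 19.3% of all genes. Gbp2b, the gene formerly called Gbp1 and the neighbour of Gbp2, was at 3.02 and 4.85 FPKM in ACSS2NLS, against 0.271 and 1.88 FPKM in EV (log2 change 1.34 ± 0.42, limma-trend adjusted p = 0.81). Its low EV value came from the library with the lowest macrophage, melanoma, MHC class II, stromal and B cell marker sums. The part of such cells in it was not tested. Ifi47, an effector IRG about as abundant as Igtp, was at 107 and 95.9 FPKM in ACSS2NLS, against 83.3 and 86.3 FPKM in EV (log2 change 0.26 ± 0.12).

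Tgtp2 was at 13.9 and 9.62 FPKM in ACSS2NLS, against 9.31 and 7.55 FPKM in EV (log2 change 0.42 ± 0.20). Gm12250, which encodes the effector also called IRGB10, was at 11.4 and 11.4 FPKM in ACSS2NLS, against 7.17 and 10.9 FPKM in EV (log2 change 0.33 ± 0.20). Ifi47, Tgtp2 and Gm12250 did not overlap between the groups. Without EV replicate 1 the log2 change was 0.06 for Gm12250 and 0.75 for Gbp2b, and without ACSS2NLS replicate 1 it was 0.18 for Tgtp2. Tgtp1, a close copy of Tgtp2, had a log2 change of 0.12 ± 0.16, and 9930111J21Rik1 had 0.11 ± 0.17. The chromosome 5 relatives had 0.20 ± 0.21 for Gbp8, -0.13 ± 0.19 for Gbp9 and -0.04 ± 0.33 for Gbp10, all with overlapping groups.

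Counted over members and relatives, 8 of 8 IRG genes tested averaged higher in ACSS2NLS than in EV (log2 change 0.34 at the median and 0.12 at the lowest) and 6 of them did not overlap between groups. Over all genes, 5217 of 9810 averaged higher and 19.3% were higher without overlap. Of 10 GBP genes tested, 5 had a higher and 5 a lower mean (median 0.02); 1 was higher and 1 lower without overlap. The tested relative 9930111J21Rik1 (log2 change 0.11 ± 0.17, with overlap) was counted in neither set. The count was drawn up after the values were seen, and neighbouring genes share sequence, so they are not independent. The 9 relatives under the filter were Gbp11, Gm5431, Gm4951, F830016B08Rik, 9930111J21Rik2, Irgq, Irgc1, Gvin1 and Gm4070, which were not tested. Gvin1 and Gm4070 had identical values in every library and were not told apart.

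**Figure D5:**
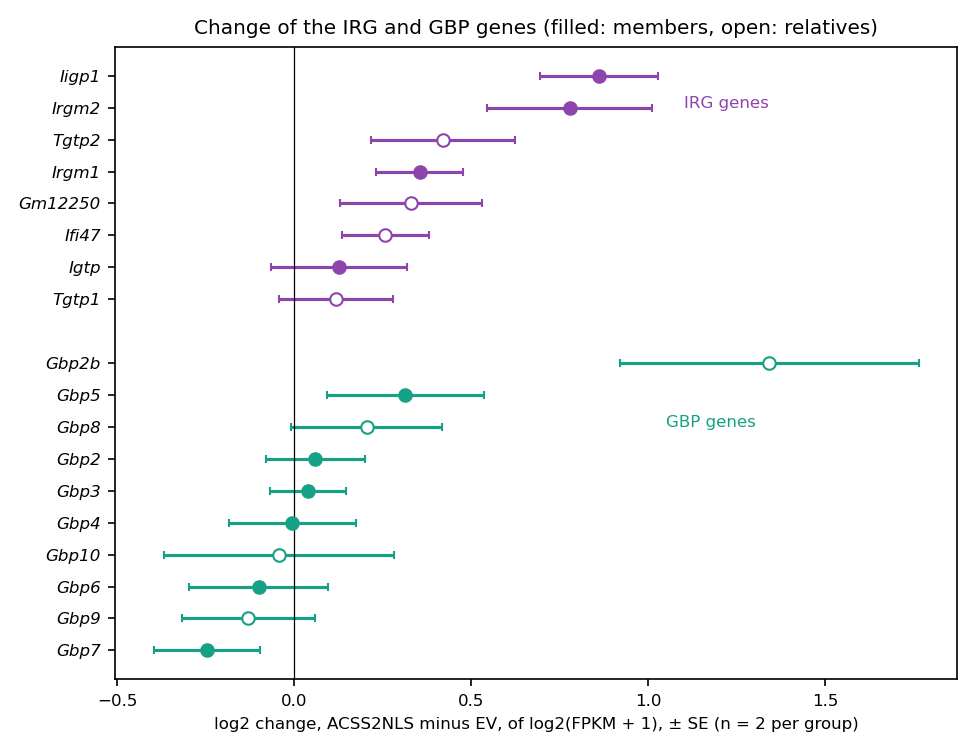
Log2 change (ACSS2NLS minus EV, of log2(FPKM + 1)) with its standard error (n = 2 per group) for 8 IRG genes (purple) and 10 GBP genes (green); filled points are members and open points relatives. All 8 IRG points lie above 0 and the GBP points lie on both sides of 0. None of the 18 passed the test over all genes. The tested relative 9930111J21Rik1 is not shown.

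Among the genes that carry the interferon gamma signal, none passed the test. Of 14 signalling genes tested, 0 passed by limma-trend over all genes, 4 had a higher and 10 a lower mean (median log2 change -0.18), and 3 were called at an unadjusted p under 0.05, all of them lower (Ifngr1, Socs1 and Socs3). Over all genes, 4593 of 9810 had a lower mean and 2.87% were called lower in this way. Ifng, the cytokine, was at 247 and 245 FPKM in ACSS2NLS, against 413 and 243 FPKM in EV, so a single EV library stood above the rest. Ifngr1, the ligand-binding receptor chain, was at 95.7 and 66.2 FPKM in ACSS2NLS, against 148 and 120 FPKM in EV (log2 change -0.74 ± 0.22, limma-trend adjusted p = 0.81), with no overlap. Ifngr2 was low, at 1.39 and 3.90 FPKM in ACSS2NLS, against 0.549 and 2.79 FPKM in EV. The macrophage, melanoma and MHC class II sums had the same order over the 4 libraries, which does not assign Ifngr2 to a cell type.

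Irf1, which binds ISRE, was at 83.0 and 63.9 FPKM in ACSS2NLS, against 118 and 55.4 FPKM in EV, and overlapped. The kinase genes had log2 changes of -0.23 ± 0.12 (Jak1) and -0.18 ± 0.21 (Jak2). The feedback inhibitors were lower without overlap: Socs1 was at 21.1 and 19.4 FPKM in ACSS2NLS, against 42.8 and 24.6 FPKM in EV, and Socs3 at 14.2 and 11.2 FPKM, against 53.6 and 20.8 FPKM (log2 changes -0.66 ± 0.26 and -1.34 ± 0.43, limma-trend adjusted p = 0.81 for each). Both inhibitors were highest in EV replicate 1, without which the log2 change was -0.27 for Socs1 and -0.68 for Socs3. Without ACSS2NLS replicate 2 that of Ifngr1 was -0.47.

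Other interferon targets were compared with the same shares over all genes, 4593 of 9810 lower in mean and 2.87% called lower. Of 25 further interferon gamma targets, 23 were tested and 0 passed by limma-trend; 9 had a higher and 14 a lower mean (median log2 change -0.06), and 3 were called at an unadjusted p under 0.05, all lower. Those 3 were the serpins Serpina3f (24.0 and 21.3 FPKM in ACSS2NLS, against 52.2 and 48.0 FPKM in EV) and Serpina3g (91.6 and 105 FPKM, against 148 and 158 FPKM), and Tapbp, the tapasin of peptide loading (139 and 152 FPKM, against 189 and 194 FPKM). Their log2 changes were -1.11 ± 0.12, -0.64 ± 0.13 and -0.40 ± 0.13. Of 24 genes of the type I interferon response, 21 were tested and 0 passed; 7 had a higher and 14 a lower mean (median -0.10), and again 3 were called at an unadjusted p under 0.05, all lower. Those 3 were the exonuclease gene Isg20 (log2 change -0.72 ± 0.20), Ifit1, which binds foreign RNA (-0.50 ± 0.15), and Oas3, a sensor of double-stranded RNA (-0.41 ± 0.14).

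Among 18 genes of partners of the GTPases (the ubiquitin-like conjugation of autophagy, which loads them onto vacuoles, and inflammasomes, which GBPs help to activate), 16 were tested, 0 passed by limma-trend, and 9 had a higher and 7 a lower mean (median 0.03). Casp1, the protease of inflammasomes, was at 17.1 and 17.97 FPKM in ACSS2NLS, against 11.9 and 11.6 FPKM in EV (log2 change 0.54 ± 0.11, unadjusted p = 0.00392, limma-trend adjusted p = 0.775). Casp1 had the smallest unadjusted p of the 16. At an unadjusted p under 0.05, 1 of them was called higher and 1 lower, against 3.1% and 2.87% of all genes. Without overlap between the groups 4 of the 16 were higher, Casp1 among them, and 2 lower, against 19.3% and 18.1% of all genes. Casp4, which senses lipopolysaccharide, had 0.22 ± 0.14, and Gabarapl1, a conjugated autophagy protein gene, -0.29 ± 0.11.

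The genes with the profile nearest to the mean of the 10 members were Rrp15, Selenot, Lmbrd1, Smcr8 and Fkbp4. The root-mean-square difference of their centred log2 values from the member profile was 0.0082 to 0.016 over 4 libraries, among 5710 named genes with at least as much spread. The member profile itself was 0.09 and 0.13 in ACSS2NLS, against -0.09 and -0.13 in EV. The list describes these 4 libraries and carries no test.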

How the data were processed

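RNA of CD8+ cells was made into libraries with the SMART-Seq v4 kit, per the labels' protocols. The submitters' processing notes name STAR 2.5.3a, HOMER and mm10. FPKM values were deposited by the authors; per the file headers, HOMER counted sense-strand tags over RefSeq exons, with a single transcript a gene. Exon lengths are those of the deposited table. The header names 8 tag directories; 4 libraries were analysed. Columns named Acss2OE and Acss2WT were read as ACSS2NLS and EV, by their names. Steps in the low FPKM gave 46000000 to 49300000 tags a library, rounded, and the tags behind each value.

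The groups were compared on log2(FPKM + 1) with limma-trend (limma 3.58.1, R 4.3.3), two-sided, over the 9810 genes averaging 1 FPKM or more, with Benjamini-Hochberg adjustment over all of them and a threshold of 0.05; count models were not used, as FPKM are not counts. The log scale understates changes of low genes. The fit was checked on 10 simulated datasets with 200 changed genes each. It recovered 53.0% of the genes changed by a log2 of 1 and 93.8% of those changed by 2, with 8.6 false calls a dataset. The simulated noise was independent between libraries, without the shared deviation of libraries of the same number (r = 0.58). In the data 2 genes passed upward and 0 downward, which makes the adjusted threshold stricter than in the simulation. The recovery rates are therefore not those of the test on the members. The largest log2 change of a member was 0.86, so failing the test does not show that a member was unchanged. Alternatives were pseudocounts, filters, scalings, no trend, a replicate block and each library left out. Named were the members, relatives, the main signalling genes (1 of them is not reported here and is left out of its list), up to 3 genes a list by unadjusted p and 5 genes of like profile. Members and lists were chosen with earlier results of these data known. The sources used here do not say whether the library preparation kept strand; Mir6381 lies antisense in a Gbp2 exon.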

Additional observations from a re-analysis of the deposited data

How the results depend on the processing

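No member passed the limma-trend test, up or down, in any of the 12 alternatives except the replicate block, where 2 passed upward: Iigp1 (adjusted p = 0.000634) and Irgm2 (adjusted p = 0.0063). Among the other named genes, the block also called Gbp2b and Casp1 higher and Ifngr1, Socs1, Socs3, Serpina3f, Serpina3g and Isg20 lower. That fit leaves 1 residual degree of freedom and called 229 genes upward and 172 downward. Samples with the same number deviated from their group means together (r = 0.58 over 9810 genes), but with 2 pairs this is a hint from the data and not a pairing by design. Over all genes, 1 passed upward with no filter, and with a library left out 2 in each case passed upward and 0 to 9 downward, the 9 without EV replicate 1. The median log2 change of the members was 0.0598 with the filter at 5 FPKM, where Irgm2 drops out, 0.1336 under quantile normalization, 0.0626 with the libraries shifted to the same median, and 0.0735 to 0.1313 with a library left out; the cause was not tested for the scalings. Gbp4 turned to 0.0215 under quantile normalization. With a library left out, log2 changes that crossed 0 ran from -0.0737 to 0.1934 for Gbp2, -0.18 to 0.17 for Gbp4, -0.30 to 0.10 for Gbp6, -0.10 to 0.35 for Igtp, -0.0169 to 0.4264 for Gbp8, -0.3105 to 0.0512 for Gbp9, -0.43 to 0.35 for Gbp10, -0.0239 to 0.2424 for 9930111J21Rik1, -0.7461 to 0.0139 for Ifng, -0.14 to 1.14 for Ifngr2, -0.4157 to 0.0605 for Jak2 and -0.69 to 0.39 for Irf1.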
